A study of Homo sapiens with 4 samples.

Results

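The genes described here are 10 that report on, or feed back to restrain, signalling through the kinase ERK: the phosphatase genes DUSP1, DUSP4, DUSP5 and DUSP6, the inhibitor genes SPRY1, SPRY2, SPRY4 and SPRED2, and the transcription factor genes ETV4 and ETV5. They were chosen by gene symbol for their known roles, as 10 of the 26364 gene symbols in the count table. Earlier results of these data were known when the choice was made. All 10 were found, and all 10 passed the filter on low counts. RNA sequencing was done on Ishikawa cells, a line from a human endometrioid adenocarcinoma, that carry the Y537S mutation of ESR1, the gene of estrogen receptor alpha. Every library came from mutant cells kept in medium stripped of hormones, with phenol red left out. Vehicle-treated cells had 0.1% DMSO and treated cells had 10 nM estradiol (E2), each for 8 h, with 2 libraries per treatment. The labels name 2 mutant clones, each given both treatments, and the count columns carry the tags A4 and B212. Since no label ties a tag to a clone number, libraries are named by tag and treatment, and each tag stands for 1 clone. No library of cells with the normal receptor was analysed here.

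As background, growth factor receptors act through RAS, RAF and MEK to activate ERK, and ERK in turn raises transcription of genes that restrain it. DUSP proteins remove phosphate from ERK and related kinases, while Sprouty (SPRY) and SPRED proteins act further up, near RAS and RAF. ETV4 and ETV5 are ETS-family factors of the PEA3 group whose transcripts are widely used, with those of DUSP6 and SPRY4, as a readout of ERK activity. In endometrial tumours this pathway is often activated by RAS mutation, and ERK can also phosphorylate the estrogen receptor.

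Promoter sequences of SPRY4, SPRY2 and DUSP6, which stood apart between the clones, are shown first, with that of SPRED2, which did not. ETS factors are nuclear targets of ERK and could be looked for at these starts. RefSeq windows on GRCh38.p14, from 250 bases before to 50 bases after a start site, were used for 6 of the 10 members, in 10 windows. DUSP4 was left out of this search, and DUSP5, ETV4 and ETV5 had no window. Capitals mark the letters CGGAA, which hold the GGAA core that ETS factors bind, or their reverse complement. GGAA after a letter other than C was not marked or counted. The outermost window of each gene is printed, 5′ to 3′ on the gene's strand.
SPRY4, chr5:142324198-142324497, strand -: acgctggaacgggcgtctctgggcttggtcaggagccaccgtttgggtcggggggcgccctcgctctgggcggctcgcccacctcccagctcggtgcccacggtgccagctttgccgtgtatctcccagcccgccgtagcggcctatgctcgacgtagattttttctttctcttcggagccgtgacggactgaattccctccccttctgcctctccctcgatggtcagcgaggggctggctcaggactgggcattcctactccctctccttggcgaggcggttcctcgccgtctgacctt
SPRY2, chr13:80341077-80341376, strand -: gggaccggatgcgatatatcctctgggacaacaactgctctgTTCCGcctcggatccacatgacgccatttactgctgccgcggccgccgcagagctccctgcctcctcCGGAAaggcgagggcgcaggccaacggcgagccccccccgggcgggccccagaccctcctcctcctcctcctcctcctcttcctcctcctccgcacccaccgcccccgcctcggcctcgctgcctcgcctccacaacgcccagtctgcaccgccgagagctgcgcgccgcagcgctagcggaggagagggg
DUSP6, chr12:89352452-89352751, strand -: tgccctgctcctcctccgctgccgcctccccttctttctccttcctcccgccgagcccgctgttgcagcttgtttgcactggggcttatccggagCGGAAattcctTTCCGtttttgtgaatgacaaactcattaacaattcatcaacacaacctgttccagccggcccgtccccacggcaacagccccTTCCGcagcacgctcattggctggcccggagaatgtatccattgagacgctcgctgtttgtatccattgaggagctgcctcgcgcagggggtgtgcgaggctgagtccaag
SPRED2, chr2:65432550-65432849, strand -: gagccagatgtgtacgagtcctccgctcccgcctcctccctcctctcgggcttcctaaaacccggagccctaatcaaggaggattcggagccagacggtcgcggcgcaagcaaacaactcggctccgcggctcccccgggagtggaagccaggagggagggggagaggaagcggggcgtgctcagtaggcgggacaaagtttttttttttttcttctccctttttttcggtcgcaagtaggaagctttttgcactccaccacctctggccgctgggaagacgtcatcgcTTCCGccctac
CGGAA was searched on both strands. It occurred 3 times in the DUSP6 window, 2 times in this SPRY2 window, 1 time in this SPRED2 window and 0 times in the SPRY4 window. The SPRY4 window does hold the shorter GGAA, after a letter other than C. Among the windows not printed it occurred 1 time, at SPRY1. Of all 35116 RefSeq windows of this length, 34.9% held it. The letters GGTCA, an arm of the estrogen response element, occurred 3 times in the SPRY4 window and 0 times in the other member windows used. Of all windows 37.4% held them. The full palindromic estrogen response element, which contains that arm 2 times, was in 0 of the member windows used and in 0.0570% of all windows. TGACG, part of the cyclic AMP response element, occurred 4 times in the DUSP1 window and 1 time each in the SPRY4 and the outermost SPRY2 and SPRED2 windows, against 24.6% of all windows with at least 1 match. The AP-1 letters TGANTCA occurred 2 times in the inner SPRED2 window and in 0 others of the member windows used, against 7.71% of all windows. These matches are a description of letters.

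The library totals ran from 71575816 to 85222856 counts, and between 18358 and 18861 symbols had a count. The 8 epithelial and endometrial markers were all expressed. Their summed level was 2489 (DMSO) and 2334 (E2) CPM, counts scaled to the library size, in A4 and 3126 and 2849 CPM in B212. KRT19 (2.02-fold), SOX17 (1.91-fold), PAX8 (1.52-fold), CDH1 (1.42-fold) and KRT8 (1.20-fold) were called higher in B212 by edgeR, with adjusted p-values from 2.29e-10 (KRT19) to 0.00495 (KRT8). EPCAM and KRT18 were not called (edgeR adjusted p 0.164 and 0.294). Of 6 fibroblast markers 3 passed the filter. These were COL1A1, COL1A2 and COL3A1, and edgeR called them lower in B212, with log2 values of -1.51, -1.52 and -2.40. The adjusted p-values were 1.28e-12, 0.000206 and 4.11e-06. The sum of the 6 was 130.4 and 94.2 CPM in the A4 libraries and 43.0 and 35.1 CPM in the B212 libraries. Nearly all of it was COL1A1, while LUM had at most 5 counts and DCN at most 1. Immune markers summed to 1.71 to 2.57 CPM, with CD3E at 0, and endothelial markers to 2.30 to 5.11 CPM, with PECAM1 at 0. The part of the epithelial and fibroblast lists in the differences between tags was not tested. ESR1 had 109.9 (DMSO) and 97.0 CPM (E2) in A4, and 107.4 and 86.5 CPM in B212. ESR1 was not called between the tags by edgeR, with an adjusted p of 0.252.

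Levels are compared between genes per kilobase of the longest GENCODE transcript, since longer transcripts collect more reads. On this scale the members fell into an upper range of 7 genes and a lower range of 3. SPRY1 (mean of 4 libraries 16.2 CPM per kb), SPRED2 (15.7), DUSP6 (15.0), SPRY2 (14.4), SPRY4 (12.8), ETV4 (11.2) and ETV5 (8.93) followed each other with ranges over the libraries that overlapped from each gene to the next. DUSP5 (2.16 CPM per kb), DUSP1 (0.791) and DUSP4 (0.228) came after, and here no range overlapped that of the neighbour. The order was not the same in the clones. SPRY4 ranked 1 of 10 in A4, at 22.4 CPM per kb, and 7 of 10 in B212, at 3.21. SPRED2 ranked 6 in A4 and 1 in B212, at 15.5 and 15.9 CPM per kb. Among the 4 phosphatase genes chosen here DUSP6 had the highest level in both tags; it encodes a cytoplasmic phosphatase selective for ERK. DUSP3, a phosphatase gene outside the set, was higher, at 26.8 to 30.2 CPM per kb over the 4 libraries. The 3 nuclear or stress-linked phosphatase genes DUSP5, DUSP1 and DUSP4 held ranks 8 to 10 in both tags.

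**Figure D1:**
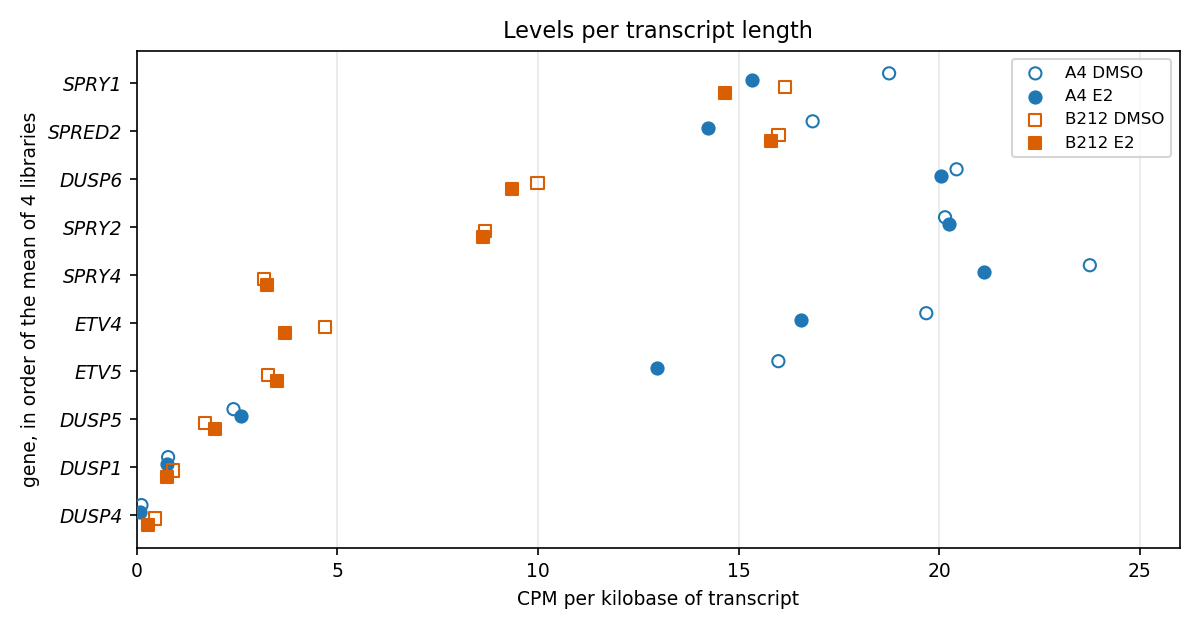
Level of each member (vertical axis, ordered by the mean of 4 libraries) in CPM per kilobase of its longest transcript (horizontal axis). Circles are A4 and squares B212 libraries, open for DMSO and filled for E2. SPRY1 and SPRED2 lie close together in all libraries, while SPRY4, ETV4, ETV5, DUSP6 and SPRY2 form separate A4 and B212 groups.

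The comparison of the clones asked how far cells with the same receptor mutation differed in ERK pathway output. SPRY4, ETV4, ETV5, SPRY2, DUSP6 and DUSP5 were lower in the B212 libraries, DUSP4 was higher, and SPRY1, SPRED2 and DUSP1 were not called. Thus 7 of 10 members passed an adjusted p of 0.05 in edgeR's quasi-likelihood test with treatment in the model, 6 lower and 1 higher. Of all 15599 genes tested 51.0% were called, 25.8% lower and 25.2% higher. The median log2 fold change of the members was -0.76, beside 0.0042 over all genes tested, and the median size was 1.14 beside 0.28. Since earlier results of these data were known when the set was chosen, these values describe the set and do not test it. With library size as the only scaling, the split of all called genes was 4761 higher and 3176 lower, against 3927 and 4023 here, and the members' split was the same 1 and 6. Each clone is a single line, so its culture and library preparation cannot be told apart from the clone. In bulk RNA, fewer cells with a transcript and less of it per cell cannot be told apart either.

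Among the Sprouty genes, SPRY4 differed most. It stood at 117.3 CPM (DMSO) and 104.3 CPM (E2) in A4, and at 15.7 and 16.0 CPM in B212. The A4 and B212 libraries were far apart, and within each tag the treatments were close. The log2 fold change, B212 over A4, was -2.80 ± 0.082 (SE), a 6.98-fold difference, with an edgeR adjusted p of 2.87e-16. It was -2.90 in DMSO and -2.70 in E2.

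SPRY2, another Sprouty inhibitor of receptor-driven RAS activation, followed with a smaller gap. Its levels were 54.6 (DMSO) and 54.8 CPM (E2) in A4, and 23.5 and 23.4 CPM in B212. The groups did not overlap, and the difference was 2.33-fold, a log2 value of -1.22 ± 0.079 (SE) with an edgeR adjusted p of 8.94e-11. SPRY1 ran from 38.2 to 48.9 CPM over the 4 libraries. Its A4 and B212 ranges overlapped, and its log2 value of -0.14 ± 0.078 was not called (edgeR adjusted p 0.141). Once a smooth trend of the log counts on length and GC was taken out, SPRY1 was called, at -0.19 with an adjusted p of 0.0248.

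SPRED2, which holds back RAS signalling through neurofibromin, did not separate the clones. Its range was 58.3 to 69.0 CPM in A4 and 64.8 to 65.5 CPM in B212, with a log2 value of 0.038 ± 0.076 (SE; edgeR adjusted p 0.700). Among the inhibitor genes the clone difference was thus called for SPRY4 and SPRY2 and not for SPRY1 and SPRED2.

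Both PEA3 factors were lower in B212. ETV4 had 47.8 (DMSO) and 40.2 CPM (E2) in A4, and 11.4 and 8.98 CPM in B212. For ETV5 the A4 levels were 65.7 and 53.3 CPM, and the B212 levels 13.4 and 14.4 CPM. In both genes the lowest A4 library was above the highest B212 library. The ETV4 difference was 4.34-fold and the ETV5 difference 4.26-fold, with log2 values of -2.12 ± 0.087 and -2.09 ± 0.094 (SE) and edgeR adjusted p-values of 5.96e-14 and 2.57e-13. ETV4 overlaps DHX8 on the opposite strand in GENCODE 29. DHX8, an RNA helicase gene with 6563 to 8858 counts, differed by -0.30 ± 0.072 (log2, SE), and how reads of the shared stretch were counted is not given in the sources used here.

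The phosphatase genes did not share 1 direction. DUSP6 had 89.9 (DMSO) and 88.2 CPM (E2) in A4, and 43.9 and 41.2 CPM in B212. The tags did not overlap, and the difference was 2.09-fold, at -1.07 ± 0.073 (log2, SE; edgeR adjusted p 2.37e-10). DUSP5, a nuclear phosphatase for ERK, had 6.16 and 6.63 CPM in A4 and 4.32 and 5.01 CPM in B212. This gap of -0.46 ± 0.12 was called by edgeR with an adjusted p of 0.00390. The DUSP5 call was lost without the A4 E2 library (adjusted p 0.106), the B212 DMSO library (0.215) or the B212 E2 library (0.0503).

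DUSP4, whose nuclear product acts on ERK and on JNK, went the other way. Its level was 0.628 (DMSO) and 0.378 CPM (E2) in A4, from 46 and 31 counts, against 2.48 and 1.56 CPM in B212. Both B212 libraries were above both A4 libraries. The difference was 4.01-fold, at 2.01 ± 0.23 (log2, SE; edgeR adjusted p 4.02e-07). DUSP1, an early-response phosphatase gene that acts mostly on p38 and JNK, had 115 (DMSO) and 123 (E2) counts in A4 and 155 and 110 in B212, and was not called, at 0.11 ± 0.19 (edgeR adjusted p 0.661). SPRY4, ETV4, ETV5, SPRY2, DUSP6 and DUSP4 were called under each of 7 other settings and in each of the 4 fits that left out a library.

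**Figure D2:**
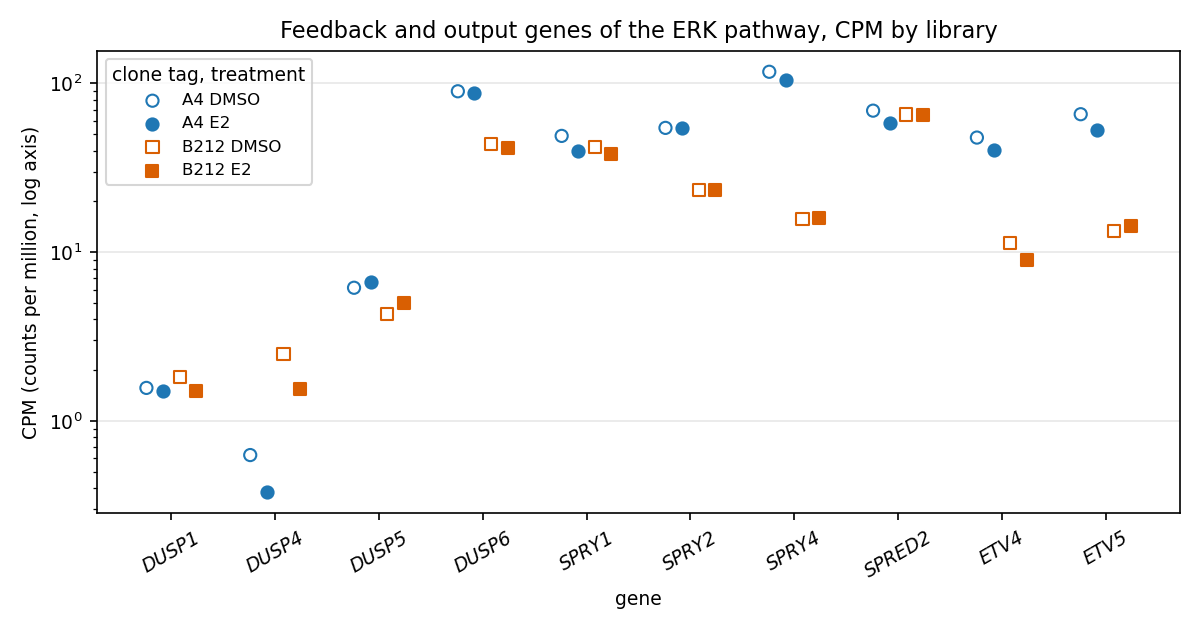
CPM of each member (vertical axis, logarithmic) in the 4 libraries; circles are A4 and squares B212, open for DMSO and filled for E2. SPRY4, ETV4, ETV5, SPRY2, DUSP6 and DUSP5 lie higher in both A4 libraries, and DUSP4 lies higher in both B212 libraries. The open and filled symbols of a tag lie furthest apart for DUSP4.

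Other genes of the pathway were taken from lists written from general knowledge, with earlier results of these data known. Of 63 genes, 59 were tested, and 30 (50.8%) were called between the tags, 10 higher and 20 lower in B212. That share was near the 51.0% of all genes. With library size as the only scaling the split was 15 higher and 14 lower. Dropping the treatment term left 13. A fit with 3 libraries has no room for that term, and such fits called 18 genes in the absence of either A4 library, 14 in that of B212 DMSO and 11 in that of B212 E2.

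Among 14 tested ERK output genes outside the member set, 9 (64.3%) were called, 3 higher and 6 lower in B212, beside 51.0% of all genes. FOSL1, an AP-1 component often induced by sustained ERK activity, was lower in B212 by -2.33 ± 0.25 (log2, SE), and PHLDA1, a pleckstrin-homology gene used in ERK signatures, by -1.75 ± 0.10. LIF, a cytokine gene, was lower by -1.17 ± 0.20. EGR1, an immediate early factor, was higher, at 40.9 (DMSO) and 44.1 CPM (E2) in B212 against 15.1 and 12.0 CPM in A4, with a log2 value of 1.66 ± 0.097. FOS and IER2, also immediate early genes, were higher by 0.63 and 0.24. For these 6 genes edgeR gave adjusted p-values from 1.81e-11 (PHLDA1) to 0.0321 (IER2). With library size as the only scaling the split was 4 higher and 5 lower. The genes not called included CCND1, MYC and HMGA1.

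Other members of the DUSP and PEA3 families were called in both directions. Of 7 tested DUSP genes 4 (57.1%) were called, near the 51.0% of all genes. DUSP7, a close relative of DUSP6, was lower by -0.67 ± 0.090 (log2, SE), DUSP14 by -0.40 ± 0.080 and DUSP9 by -0.68 ± 0.24. DUSP8, which acts on JNK and p38, was higher by 1.16 ± 0.16. ETV1, the third PEA3 factor, was lower by -0.81 ± 0.11, the 1 call among 3 tested genes of its list (33.3%). SPRED1, the near relative of SPRED2, had a value of -0.0029 ± 0.070. Among these called genes, edgeR gave adjusted p-values from 3.75e-06 (DUSP7) to 0.0221 (DUSP9).

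In the RAS-RAF-MEK-ERK cascade fewer of the genes were called. Of 21 tested genes 8 (38.1%) were called, 3 higher and 5 lower, beside 51.0% of all genes. The median size of the log2 values was 0.18, beside 0.30 for the output genes. This difference between lists was not tested. With library size as the only scaling the cascade split was 5 higher and 3 lower. The adaptor gene GAB1 was higher in B212 by 0.76 ± 0.086, and SOS2 and KSR1 by 0.26 and 0.40. SHC1, another adaptor gene, was lower by -0.45 ± 0.070, NRAS by -0.27, and KSR2, a scaffold gene with 13 to 76 counts, by -1.69 ± 0.34.  Of 14 other inhibitors 8 (57.1%, near the 51.0% of all genes) were called, 3 higher and 5 lower (5 and 2 with library size only). Among them were RASAL1, a RAS GTPase-activating gene, at 0.73 ± 0.090, LRIG1 at 0.40, NF1 at 0.19, IL17RD (SEF) at -0.35 ± 0.080, PEBP1 at -0.25 and RASAL2 at -0.23. Adjusted p-values of the named genes of both lists, by edgeR, ran from 3.99e-07 (GAB1) to 0.0433 (KSR1).

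Many of the smaller gaps were not called in other fits. With all 4 libraries kept, dropping the treatment term ended the calls of DUSP9, LRIG1, NF1, IL17RD, PEBP1, RASAL2, SOS2, KSR1, NRAS, FOS and IER2, with edgeR adjusted p-values of 0.0503 (FOS) to 0.200 (KSR1). The fits with 3 libraries also lack that term, so for these genes the part of the left-out library cannot be told apart from it. Such fits lost DUSP9, NF1, PEBP1, KSR1 and FOS whichever library was left out. LRIG1, SOS2, NRAS and IER2 lost their calls without A4 E2, B212 DMSO or B212 E2, RASAL2 without A4 DMSO, B212 DMSO or B212 E2, and IL17RD without A4 DMSO or B212 E2. DUSP14 and SHC1, still called with no treatment term, lost the call without A4 E2, B212 DMSO or B212 E2 (DUSP14) and without B212 E2 (SHC1). In the fits with 3 libraries the adjusted p-values of lost calls ran from 0.0503 (DUSP14) to 0.655 (NF1). DESeq2 also did not call DUSP9, NF1, KSR1, FOS and IER2 (adjusted p from 0.0897 for NF1 to 0.282 for KSR1). RASAL2 was not called with library size as the only scaling (edgeR adjusted p 0.0670), nor KSR1 with DESeq2 size factors in edgeR (0.0547). NF1 was not called with no filter on low counts (edgeR adjusted p 0.0745) or with the length and GC trend removed (0.278). FOSL1, PHLDA1, EGR1, LIF, DUSP7, DUSP8, ETV1, RASAL1, GAB1 and KSR2 were called in every one of these fits.

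**Figure D3:**
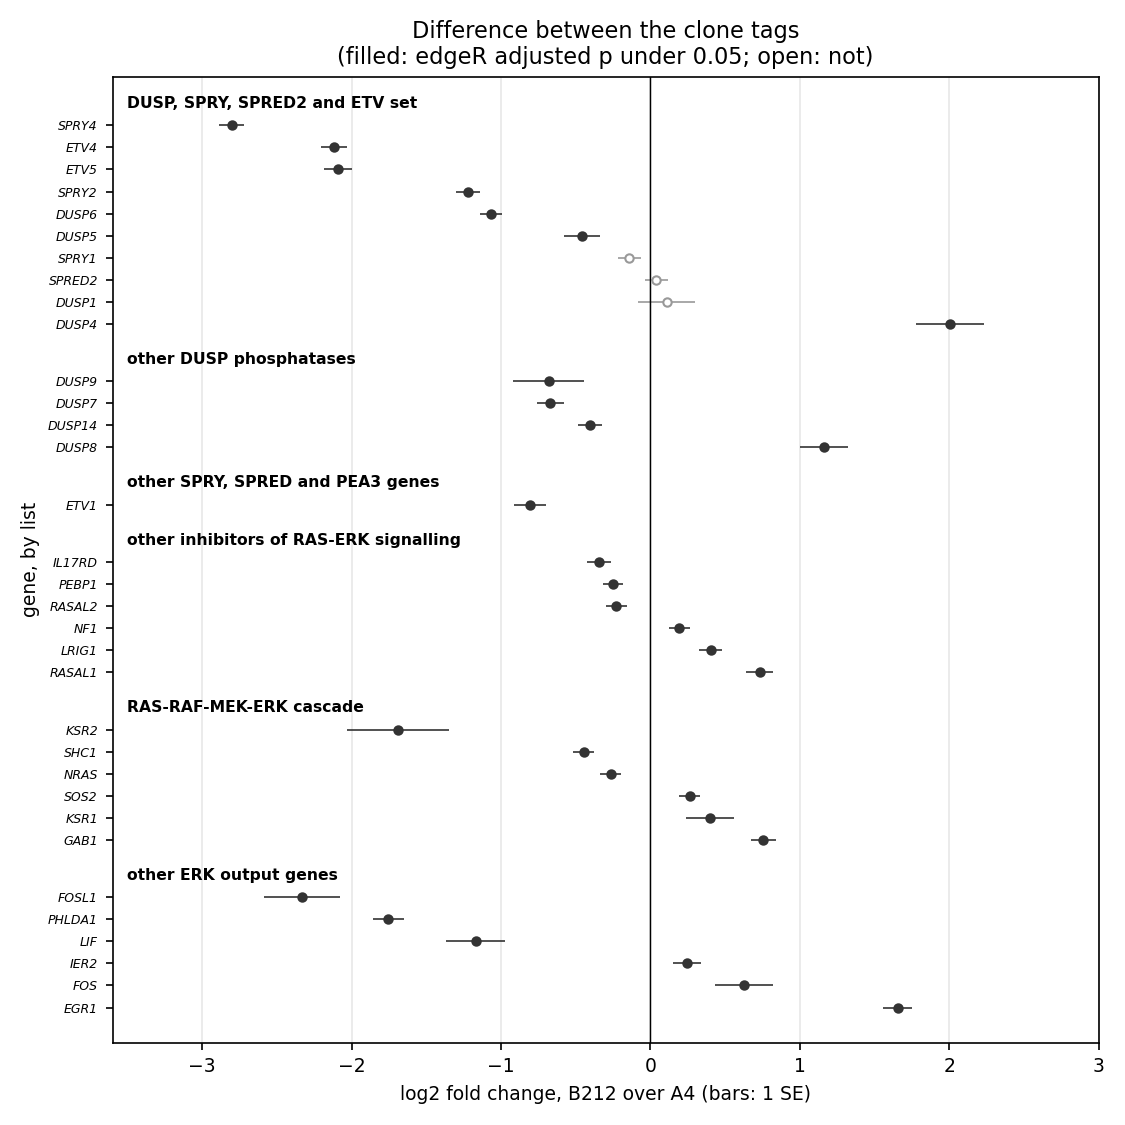
log2 fold change of B212 over A4 (horizontal axis; bars are 1 SE) for the 10 members and, by list, the called pathway genes named for this comparison. Filled points passed an edgeR adjusted p of 0.05; SPRY4 (-2.80), FOSL1 (-2.33), ETV4 (-2.12) and ETV5 (-2.09) lie furthest to the left, DUSP4 (2.01) and EGR1 (1.66) furthest to the right.

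The comparison of E2 with DMSO asked whether the ligand moved these genes in cells whose receptor carries an activating mutation. With no block for the tag, edgeR called 0 of 10 members, beside 0% of the 15599 genes tested. At an unadjusted p under 0.05 there were 0 members and 150 genes, and DESeq2 called 0 members and 1 gene. The spread within a treatment then included the clone difference, and the biological coefficient of variation was 32.2%, against 5.99% with the tag as a block. In simulated data with clone differences of this size, the fit with no block missed all 200 genes given a log2 change of 1. Its count of 0 members therefore cannot show whether E2 acted. The deviations of same-tag libraries from the treatment means were correlated (Pearson r of 0.871 across genes), and the labels give each clone both treatments. With the tag as a block, 1 of 10 members was called, ETV4, which was lower, beside 9.56% of all genes, 6.13% higher and 3.44% lower. The split of all called genes was 956 higher and 536 lower, and with library size as the only scaling 911 and 775. The members' median log2 fold change with the block was -0.13, beside -0.0081 over all genes. Of the members' values 9 were below 0 and 1 above. Over all genes tested 8028 were below and 7571 above, and among the other pathway genes 46 and 13. The 9 include SPRY2, at -0.0011, and SPRY2, SPRY4 and ETV5 had E2 ratios of opposite sign in A4 and B212.

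ETV4 was the 1 member called for E2 in the fit with the block, and it was lower. The libraries held 3501 (DMSO) and 3301 (E2) counts for A4, then 971 and 658 for B212. In CPM, E2 was below DMSO in both tags, with log2 ratios of -0.25 (A4) and -0.34 (B212). With the tag as a block the log2 fold change was -0.29 ± 0.084 (SE), a decrease of 18.2%, with an edgeR adjusted p of 0.0358. With no block it was -0.27 ± 0.99 (edgeR adjusted p 0.9999). The call with the block was lost with DESeq2 size factors in edgeR (adjusted p 0.0576), limma-voom (0.0587), the length and GC trend removed (0.0851) and DESeq2 (0.0988).

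DUSP4 had the largest E2 value of the members and the fewest counts. Its level went from 0.628 to 0.378 CPM in A4 and from 2.48 to 1.56 CPM in B212. Counting error alone gave 95% intervals of -1.39 to -0.076 and -1.004 to -0.35 for the log2 ratios of -0.73 and -0.68. With the block the value was -0.69 ± 0.22 (SE) and not called by edgeR (adjusted p 0.0533). Other settings with the block called it: library size only (0.0384), at least 10 counts in every library (0.0430) and no filter (0.0223).

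SPRY1 was lower with E2 in both tags, at 48.9 (DMSO) and 40.0 CPM (E2) in A4 and 42.1 and 38.2 CPM in B212. Both E2 libraries lay below both DMSO libraries. The value with the block, -0.22 ± 0.078 (SE), was not called (edgeR adjusted p 0.0873), but it was with the length and GC trend removed, at -0.28 (adjusted p 0.0255). DUSP1 and SPRED2 also had E2 libraries below both DMSO libraries. With 2 libraries per treatment such a separation can arise by chance, and its share over all tested genes was not counted. Counting intervals of the log2 ratios spanned no change for DUSP1 in A4 (-0.43 to 0.30) and B212 (-0.63 to 0.077). For SPRED2 this held in B212 (-0.072 to 0.040) and not in A4 (-0.30 to -0.19). The values of DUSP1 and SPRED2 with the block were -0.17 ± 0.19 and -0.13 ± 0.076, and neither was called (edgeR adjusted p 0.616 and 0.300). Treatment took 64.6% of the variance of log2 CPM over the libraries for SPRY1, 57.0% for DUSP1 and 53.9% for SPRED2, and at most 10.8% for any other member. The unequal response of the tags took 7.80% for SPRY1, 21.2% for DUSP1 and 41.3% for SPRED2. These were the members not called between the tags, so the shares are of a small spread and say nothing on the size of a response.

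The other members were not called for E2. DUSP6 had a value of -0.060 ± 0.072, SPRY2 of -0.0011 ± 0.078, SPRY4 of -0.080 ± 0.078 and ETV5 of -0.12 ± 0.092, all log2 with the block and SE. DUSP5, with 0.16 ± 0.12, was the 1 member above 0. Their edgeR adjusted p-values ran from 0.441 (ETV5) to 0.995 (SPRY2).

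**Figure D4:**
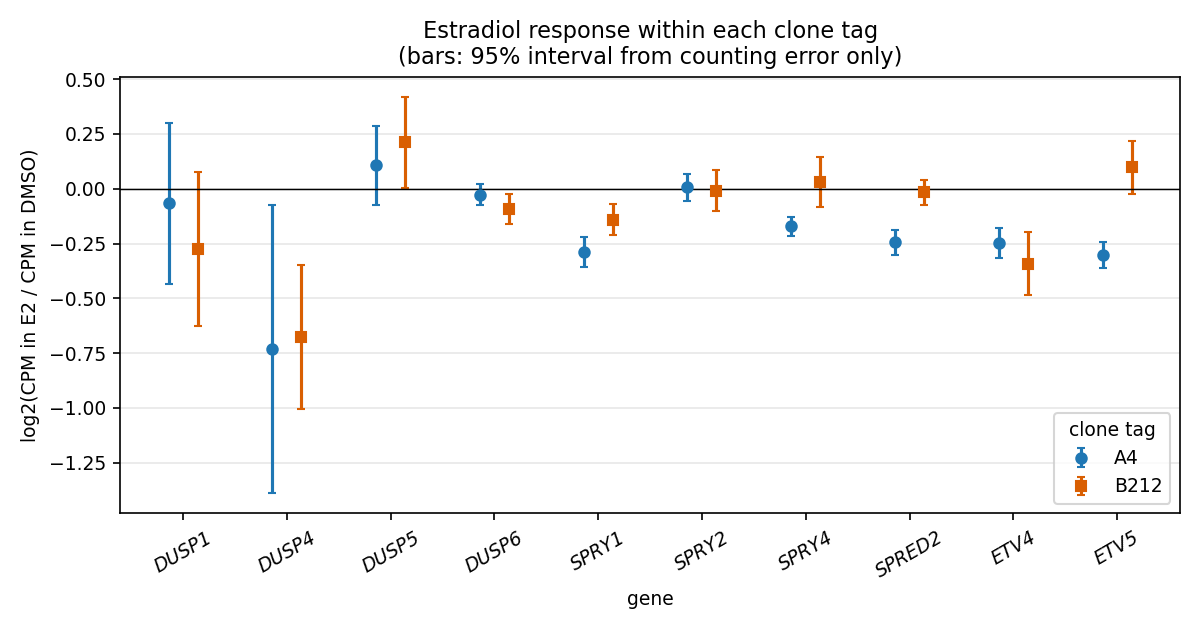
log2 ratio of CPM in E2 over DMSO (vertical axis) for each member, in A4 (circles) and B212 (squares); bars are 95% intervals from counting error only. ETV4, SPRY1, DUSP4, DUSP1, DUSP6 and SPRED2 lie below 0 in both tags. DUSP5 lies above 0 in both, and ETV5, SPRY4 and SPRY2 lie on opposite sides.

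Of the 59 other pathway genes, 0 were called for E2 with no block and 4 (6.78%) with it, all lower, against 9.56% of all genes. RASAL1 fell by 0.36 ± 0.090 (log2, SE), IL17RD by 0.26 ± 0.080, SHC1 by 0.23 ± 0.070 and CCND1, the cyclin D1 gene, by 0.25 ± 0.076. Their edgeR adjusted p-values were 0.0162, 0.0446, 0.0448 and 0.0453. In CPM all 4 were lower with E2 in both tags. With the block, RASAL1 alone was called under DESeq2 size factors or limma-voom, DESeq2 called CCND1 only and gave RASAL1 no adjusted p, and none was called with the length and GC trend removed. ESR1, the receptor gene, fell by 0.25 ± 0.070 with the block (edgeR adjusted p 0.0330). That ESR1 call was lost with DESeq2 size factors (0.0565), DESeq2 (0.0802) and the trend removed (0.101).

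Of the 59 genes, FOSL1 and PHLDA1 had the pattern over the 4 libraries closest to that of ETV4, as a description. The root mean square difference of log2 CPM, centred on each gene's mean, was 0.079 for FOSL1 and 0.29 for PHLDA1. FOSL1 had 137 (DMSO) and 122 (E2) counts in A4 and 31 and 22 in B212, so its low counts limit this closeness. The tag took 98.0% of the variance of log2 CPM for ETV4, so the closeness is mostly that of the clone difference. With E2, PHLDA1 fell in A4 as ETV4 did (log2 ratios -0.20 and -0.25). In B212 PHLDA1 rose (0.29) and ETV4 fell (-0.34).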

How the data were processed

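The authors deposited a table of raw counts, whole numbers of reads for each gene symbol. Per the submitters' processing notes, HISAT2, SAMtools, featureCounts and DESeq2 and the build hg19 were used, with no versions; the annotation and strand setting are not given in the sources used here. Per the labels' protocols, libraries were stranded and poly(A)-selected, from 500 ng of RNA. The table has 4 more columns, which match no label here and were left out. Nothing says that libraries came from separate cultures, so p-values measure the spread between these libraries, which may be technical. With tag and treatment both fitted, the spread left is how unequally the tags responded to E2, shared over genes. Those p-values do not measure the spread between clones, or between repeat libraries of the same clone and treatment, of which there are none. All pairs differed by more than sampling noise (chi-square per degree of freedom 27.3 to 219.5).

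Genes were kept by filterByExpr (minimum count 10), 15599 in all, and scaled with edgeR's TMM factors. Treatments and tags were each compared over all genes by edgeR 4.0.16 (R 4.3.3), quasi-likelihood test, Benjamini-Hochberg adjustment, threshold 0.05. Each SE is the fold change over the root of its F statistic. A prior count of 2 entered log2 CPM. Treatments were also compared with the tag as a replicate block; same-tag libraries come from 1 clone, though this rests on the column names. Alternatives used limma 3.58.1, DESeq2 1.42.0 and, for the trend on length and GC, mgcv 1.9.3 with GENCODE 29 transcripts (93.5% of tested genes matched by symbol). Figures were drawn with Python 3.11.15 and matplotlib 3.10.9. The scripts were tested on simulated data, with 200 genes given a log2 change of 1. When the simulated tags were alike, the E2 fits found 195 (no block) and 198 (block), with 0 and 6 false calls. When the tags differed as much as these libraries do, they found 0 and 199, with 0 and 12 false calls. Intervals cover counting error only.

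The members and lists were chosen with earlier results of these data known. Named genes were the members, ESR1, up to 3 genes per list, comparison and direction with the smallest p among those called, and the 2 listed genes nearest in pattern to a member called for E2. SPRED1, CCND1, MYC and HMGA1, as genes not called between the tags, were added after their values were seen. So were DHX8, DUSP3 and the tag results of the epithelial and fibroblast markers. Some genes of the pathway lists are counted but not reported here by name.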

Additional observations from a re-analysis of the deposited data

Results flagged for a closer look

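Of the 10 members, 3 had E2 log2 fold changes of opposite sign in the A4 and B212 libraries, a contrast that was not tested because a tag holds a single library for each treatment. ETV5 had -0.30 in A4 and 0.099 in B212; its 95% counting intervals, -0.36 to -0.24 and -0.022 to 0.22, did not overlap. SPRY4 had -0.17 in A4 and 0.031 in B212, with intervals of -0.21 to -0.13 and -0.082 to 0.14. SPRY2 had 0.0064 in A4 and -0.0092 in B212, and both of its intervals included 0. Counting error does not cover the spread between cultures.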

How the results depend on the processing

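For E2 with no block, the count of 0 genes and 0 members (150 and 0 at an unadjusted p under 0.05) held with DESeq2 size factors, library size only, both other filters and leaving out each library (0 to 0); DESeq2 called 1 gene and 0 members. With the tag as a replicate block there were 1492 genes and 1 member. With the block and another choice, the counts of genes and members were 717 and 0 (DESeq2 size factors), 1686 and 2 (library size only), 1560 and 2 (each library at 10 counts or more), 1770 and 2 (no filter), 562 and 0 (DESeq2), 1138 and 0 (limma-voom) and 721 and 1 (trend removed, SPRY1 in place of ETV4). The cause was not tested. Leaving out a library with the block leaves no residual degrees of freedom and was not run.

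The 7950 genes called between the tags became 4456 with no treatment term and 3094 to 5639 without 1 library, again with no treatment term, where the lone library of a tag is assumed to vary like the others; the members called stayed at 6 to 7 without 1 library and were 8 with the trend removed. SPRY2's E2 value of 0.0023 with no block reversed to -0.0011 (replicate block), -0.0044 (DESeq2 size factors), -0.026 (library size only), -0.0060 (at least 10 counts) and -0.0048 (DESeq2). With the block it was -0.0087, -0.022, -0.0070 and -0.0088 under those same settings, -0.0016 with no filter, -0.00027 with limma-voom and -0.018 with the trend removed, where SPRY4 reversed to 0.028.

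Leaving out 1 library with no block unbalances the tags, so the clone difference enters the E2 value by construction, and these values say nothing on its stability. They ran from -0.72 to 0.56 (DUSP6), -2.07 to 1.94 (SPRY4), -1.74 to 1.11 (ETV4), -1.48 to 1.33 (ETV5), -0.76 to 0.73 (SPRY2), -0.083 to 0.43 (DUSP5), -2.04 to 0.61 (DUSP4), -0.80 to 0.017 (RASAL1) and -0.47 to 0.033 (SHC1). Tag values without 1 library, where the treatments are unbalanced and have no term, ran from -0.29 to 0.0065 (SPRY1), -0.092 to 0.16 (SPRED2), -0.058 to 0.24 (DUSP1) and -0.28 to 0.054 (ESR1). Of 34 genes named for the tags, 11 lost the call under at least 1 of 7 other settings and 1 gained it. Among the members DUSP4 had the fewest counts, with 31 and 46 in the A4 libraries.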
